A study of Mus musculus with 12 samples.

Results

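Collagens were followed through 11 libraries of RNA from the neonatal mouse cochlea. The members were chosen by name and a minimum level. Their symbols have the form *Col*, a number, *a* and a number, and their mean was at least 10 normalized counts over the 11 libraries. This gave 41 of the 18400 genes tested. 44 collagen symbols were in the table, and the 3 under the minimum were *Col6a4*, *Col6a5* and *Col10a1*. The members were 11 fibrillar chains, 9 FACIT chains (fibril-associated collagens), 8 network chains, 4 chains of the beaded filament of collagen VI, 4 transmembrane collagens, 2 multiplexins and 3 others, and 6 of them build the collagen of the tectorial membrane.

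The study asked how the sensory epithelium answers stabilized β-catenin when it is begun at either of 2 ages. Treated pups were Sox2-CreER/+; β-catenin-flox(Exon3)/+, in which Cre acts in SOX2-positive cells only and removes the exon that marks β-catenin for breakdown, and untreated pups were β-catenin-flox(Exon3)/+ without Cre. All pups were of the strain Mixed C57BL/6 and CD1 and all, controls included, received tamoxifen through the milk of an injected mother. In the P1 groups tamoxifen was given on postnatal day 1 and the tissue taken on day 4, in the P4 groups on day 4 and day 7, in both 72 h later. There were 3 P1 untreated, 3 P1 treated, 3 P4 untreated and 2 P4 treated libraries (replicates 1 and 3), each from both ears of 1 pup, after incubation in Cell Recovery Solution, meant to leave hair cells and supporting cells without mesenchyme or neurons. The authors excluded 1 sample for insufficient Cre activation, and P4 treated replicate 2 was not analysed here.

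Collagens are secreted or membrane-bound proteins whose chains wind around each other in a helix. Fibrillar collagens form the ropes of cartilage, tendon and bone, FACIT collagens sit on the surface of such ropes, and network collagens form the sheets of basement membranes. In the cochlea, the tectorial membrane, the gel that lies over the hair bundles, is built on fibrils of collagens II, IX and XI, the same set of chains that cartilage uses, and collagen IV chains line the basement membranes below the epithelium and around the vessels.

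Values below are normalized counts, which the authors made by scaling the counts of every library with its own size factor, and are listed in the order of the replicate numbers. Library sums were 41.2 to 44.2 M. Groups were compared on log2(normalized count + 1) with limma over all 18400 genes, and calls needed an adjusted p under 0.05 together with a rise of over 25% or a fall of over 20%. Hair cell markers (*Otof* 4764 to 13147) and supporting cell markers (*Sox2* 4930 to 10485) were present in every library. Mesenchyme markers were present too, against the labelled tissue, the highest being *Lum* at 60859 to 141234 and *Dcn* at 19013 to 37637. Others were far lower, such as *Pdgfra* at 727 to 4427, *Pou3f4* at 170 to 1709 and *Twist2* at 15 to 135. *Lum* was higher in P1 treated (94107 to 132049) than in P1 untreated libraries (60859 to 66546), while *Pou3f4* and *Tbx18* were lower. The level of *Xist*, which is made in female cells, was 13 to 26 in the P1 treated libraries, 16, 3030 and 2794 in the P1 untreated, 32 to 39 in the P4 untreated, and 4180 and 3268 in the P4 treated. Sex can therefore not be told apart from age among treated libraries or from treatment at P4. Only treated pups carried *Sox2-CreER*, and the paper names reduced *Sox2* in such knock-in alleles as a limitation. *Sox2* was at 4930 to 6006 in P1 treated against 8042 to 10170 in P1 untreated libraries. At P4 it was at 7577 and 7993 in treated against 10101 to 10485 in untreated ones. Stabilized β-catenin can therefore not be told apart from the allele. In such bulk tissue, fewer cells of a type and less RNA per cell cannot be told apart either.

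Promoter sequences were taken from RefSeq (GRCm38.p6), as windows of 300 bases that run from 250 before to 50 after the start of a gene, and 32 of the 41 members had at least 1 window, 35 windows in all. *Col1a1*, *Col2a1*, *Col4a3*, *Col5a2*, *Col9a3*, *Col12a1*, *Col14a1*, *Col22a1* and *Col26a1* had none. The first pair is shown because *Col4a1* and *Col4a2*, the chains of the common basement membrane collagen, are read in opposite directions from the same place. Capitals mark the 78 bases that both windows cover, each written on the strand of its own gene. The *Col4a1* window is chr8:11312777-11313076 on the minus strand and the *Col4a2* window chr8:11312555-11312854 on the plus strand.
Col4a1: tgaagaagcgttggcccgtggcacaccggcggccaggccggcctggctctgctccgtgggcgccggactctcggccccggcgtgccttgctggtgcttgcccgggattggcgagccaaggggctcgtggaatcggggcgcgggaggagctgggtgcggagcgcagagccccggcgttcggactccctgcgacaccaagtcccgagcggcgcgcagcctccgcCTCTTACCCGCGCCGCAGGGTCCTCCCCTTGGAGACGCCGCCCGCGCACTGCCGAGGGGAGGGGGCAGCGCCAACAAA
Col4a2: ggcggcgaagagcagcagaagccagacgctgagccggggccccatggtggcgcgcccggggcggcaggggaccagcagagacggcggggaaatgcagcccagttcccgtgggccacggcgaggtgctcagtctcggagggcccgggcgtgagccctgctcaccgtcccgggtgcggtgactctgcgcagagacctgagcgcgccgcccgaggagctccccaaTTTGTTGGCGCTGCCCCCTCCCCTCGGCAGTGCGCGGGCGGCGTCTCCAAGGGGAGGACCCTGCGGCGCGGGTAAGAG

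Annotated gene bodies of *Col4a1* and *Col4a2* overlap by 22 bases. Libraries were not stated to keep the strand, so reads in these bases cannot be assigned to either gene. The next windows belong to 4 members that differed most clearly between groups or stand for a class, and capitals in them mark matches, on either strand, to 4 short motifs, none of which holds another. These were the TATA box (TATAAA), the CCAAT box (named by its letters), the GC box (GGGCGG) and the motif CTTTGAT, which TCF/LEF factors, the partners of β-catenin, bind. *Col13a1*, a transmembrane collagen, has its window at chr10:61979059-61979358 (minus strand), *Col5a1*, a fibrillar chain, at chr2:27886175-27886474 (plus strand), *Col4a4*, a network chain, at chr1:82586800-82587099 (minus strand), and *Col9a2*, a FACIT chain of the tectorial membrane, at chr4:121039316-121039615 (plus strand).
Col13a1: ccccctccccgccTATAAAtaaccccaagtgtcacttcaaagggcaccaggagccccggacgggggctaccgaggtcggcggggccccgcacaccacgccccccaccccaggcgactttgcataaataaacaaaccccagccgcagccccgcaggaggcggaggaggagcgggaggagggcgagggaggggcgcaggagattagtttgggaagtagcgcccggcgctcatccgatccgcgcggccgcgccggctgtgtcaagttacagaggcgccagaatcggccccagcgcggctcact
Col5a1: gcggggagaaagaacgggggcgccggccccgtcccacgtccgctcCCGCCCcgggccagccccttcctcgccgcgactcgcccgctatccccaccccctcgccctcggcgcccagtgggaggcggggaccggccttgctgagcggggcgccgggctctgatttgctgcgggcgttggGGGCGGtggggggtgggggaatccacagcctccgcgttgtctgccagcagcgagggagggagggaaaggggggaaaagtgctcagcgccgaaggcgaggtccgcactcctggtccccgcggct
Col4a4: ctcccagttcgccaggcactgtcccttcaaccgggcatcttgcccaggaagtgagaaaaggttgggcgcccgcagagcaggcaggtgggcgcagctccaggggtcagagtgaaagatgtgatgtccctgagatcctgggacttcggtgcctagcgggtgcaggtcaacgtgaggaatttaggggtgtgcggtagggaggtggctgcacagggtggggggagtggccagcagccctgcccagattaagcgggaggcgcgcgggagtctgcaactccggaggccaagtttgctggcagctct
Col9a2: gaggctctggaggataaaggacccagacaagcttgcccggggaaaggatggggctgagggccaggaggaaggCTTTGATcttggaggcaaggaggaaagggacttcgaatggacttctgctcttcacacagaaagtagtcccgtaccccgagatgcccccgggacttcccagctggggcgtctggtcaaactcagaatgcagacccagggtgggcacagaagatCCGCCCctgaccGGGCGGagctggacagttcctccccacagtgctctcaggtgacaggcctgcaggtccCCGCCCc

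*Col13a1* held a TATA box, near the end of the window that is farthest from the start site, and *Col5a1* held 2 GC boxes. *Col9a2* held 3 GC boxes and the TCF/LEF motif, and *Col4a4* held none of the 4. Of the 35 member windows, 4 held the TATA box, 12 the CCAAT box, 21 the GC box and 1, that of *Col9a2*, the TCF/LEF motif. Of all 32851 windows of this length in the table, 13.6%, 37.4%, 35.7% and 3.73% held them. These are matches of letters and were not tested as sites.

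Collagen RNA was a large part of these libraries. The 41 members held 2.87 ± 0.0878% of all normalized counts in P1 untreated libraries (SD, n = 3), 3.39 ± 0.18% in P1 treated (SD, n = 3), 2.54 ± 0.342% in P4 untreated (SD, n = 3) and 2.73 ± 0.338% in P4 treated (SD, n = 2). Most of this was in the 6 tectorial membrane chains, which held 2.46 ± 0.1%, 2.99 ± 0.107%, 2.21 ± 0.312% and 2.41 ± 0.288%. *Col2a1*, the chain of collagen II (chr15:97975602-98004695, minus strand), ranked 2 or 3 among all genes in every library by normalized counts.

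Per kb of exon, *Col2a1* led with a mean of 95860 normalized counts per kb over the 11 libraries. *Col9a2* (65644), *Col9a3* (39478) and *Col9a1* (38337), the chains of collagen IX, followed, and then *Col11a2* (13368), a chain of collagen XI. *Col18a1*, a basement membrane collagen whose end is cut off as endostatin, was the first member outside the tectorial membrane set, at 9436 per kb. Interstitial chains stood below these, *Col1a2* at 4842 and *Col3a1* at 2594 per kb. *Col11a1*, of the tectorial membrane set, lay between these at 4219 per kb, and the lowest member was *Col28a1* at 3.09 per kb. All 41 are shown in the plot of members by library.

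**Figure D1:**
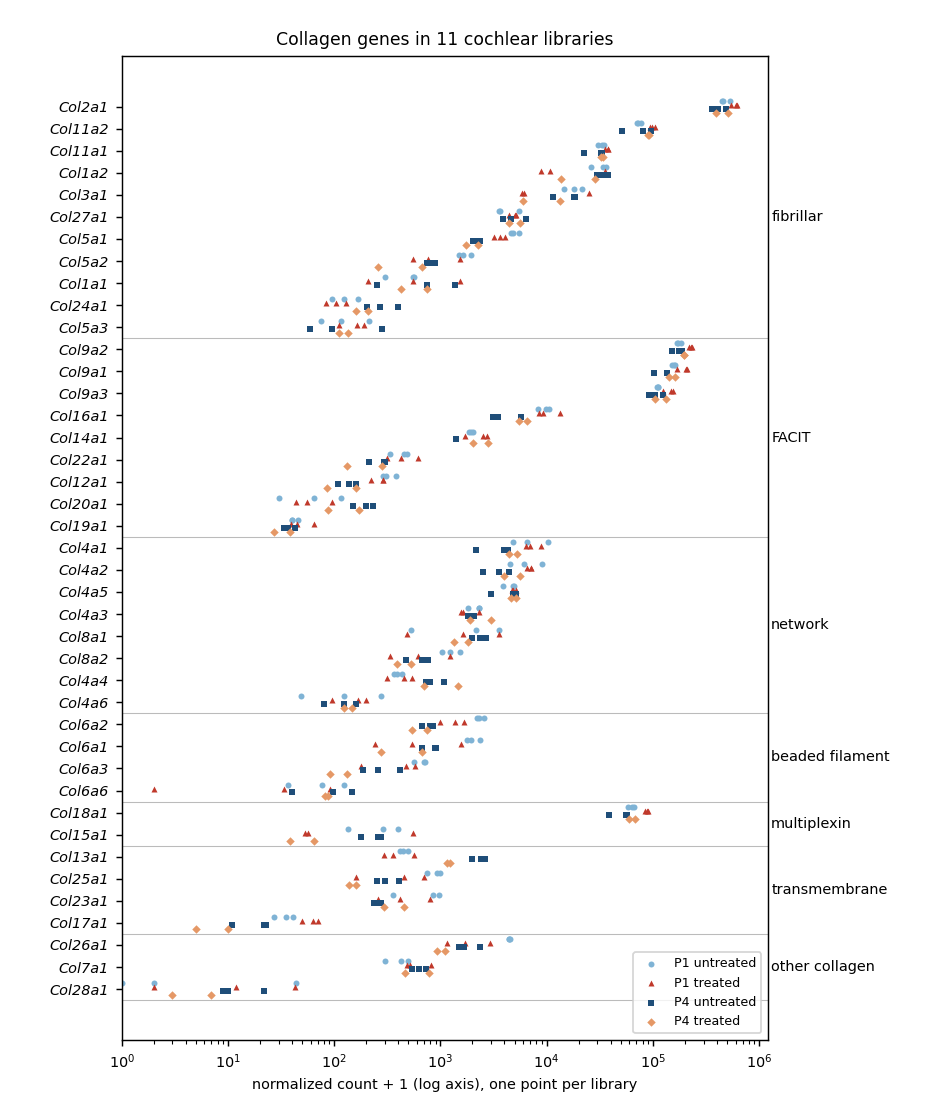
Normalized count + 1 (log axis) of the 41 collagen genes in 11 libraries, by class, with 1 point per library coloured by group. *Col2a1* and the collagen IX chains have the highest normalized counts of the members in every library, while *Col17a1* and *Col28a1* lie near the minimum.

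Of the tectorial membrane collagens, *Col2a1* was at 457332, 537220 and 448079 in P1 untreated and at 610546, 625782 and 549310 in P1 treated libraries. At P4 it was at 409076, 358528 and 491816 without and at 505555 and 388733 with Cre. The P1 treated libraries lay above the P1 untreated without overlap, and those of P4 overlapped.

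*Col9a1*, which encodes the first chain of collagen IX, was at 150964, 156542 and 161856 in P1 untreated, 209578, 167523 and 206538 in P1 treated, 134735, 102411 and 136012 in P4 untreated, and 162808 and 142160 in P4 treated libraries. *Col9a2*, the partner whose promoter is printed above, was at 171403, 167121 and 183004, at 230718, 219199 and 232779, at 175356, 152134 and 188545, and at 196374 and 194748 in the same order of groups. *Col9a3*, the remaining chain, was at 110544, 112573 and 112917, at 153311, 125563 and 149487, at 104874, 91336 and 123889, and at 133267 and 104993. All of these chains were higher in every P1 treated than in any P1 untreated library, and at P4 *Col9a1* and *Col9a2* were higher in the treated libraries without overlap while *Col9a3* overlapped.

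*Col11a1*, which helps set the width of collagen II fibrils, was at 33007, 34320 and 30566 in P1 untreated, 37659, 35338 and 37592 in P1 treated, 33096, 22455 and 32669 in P4 untreated, and 33885 and 32321 in P4 treated libraries. *Col11a2*, its partner, was at 73112, 76937 and 71298, at 105191, 93697 and 98981, at 80239, 50678 and 95360, and at 89762 and 92021. Both were higher in the P1 treated libraries without overlap, and both were low in P4 untreated replicate 2, which was also the lowest P4 library for *Col2a1* and the collagen IX chains.

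With treatment at P1 the log2 fold changes (treated over untreated) were 0.31 for *Col2a1*, 0.31 for *Col9a1*, 0.39 for *Col9a2*, 0.34 for *Col9a3*, 0.18 for *Col11a1* and 0.43 for *Col11a2*. None was called, and 0.353% of all genes were. The smallest adjusted p from limma was that of *Col9a2*, 0.126 (standard error 0.09), and the largest that of *Col11a1*, 0.672. On quantile-normalized values, which leave little room to the few most abundant genes, *Col2a1* turned to -0.13 and the other 5 stayed above 0 (0.06 to 0.28). At P4 the 6 values were 0.09 to 0.32 with a median of 0.19, and none was called (all genes, 0.0543%). On quantile-normalized values *Col2a1* and *Col9a2* were at 0.00 there and the other 4 at 0.12 to 0.29. Between untreated P1 and P4 libraries the 6 chains differed by 0.02 to 0.34 (log2, P1 over P4), and none was called (all genes, 19.9%). The levels of these chains by group are shown in the plot of abundant collagens, beside *Col18a1* and *Col13a1*.

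**Figure D2:**
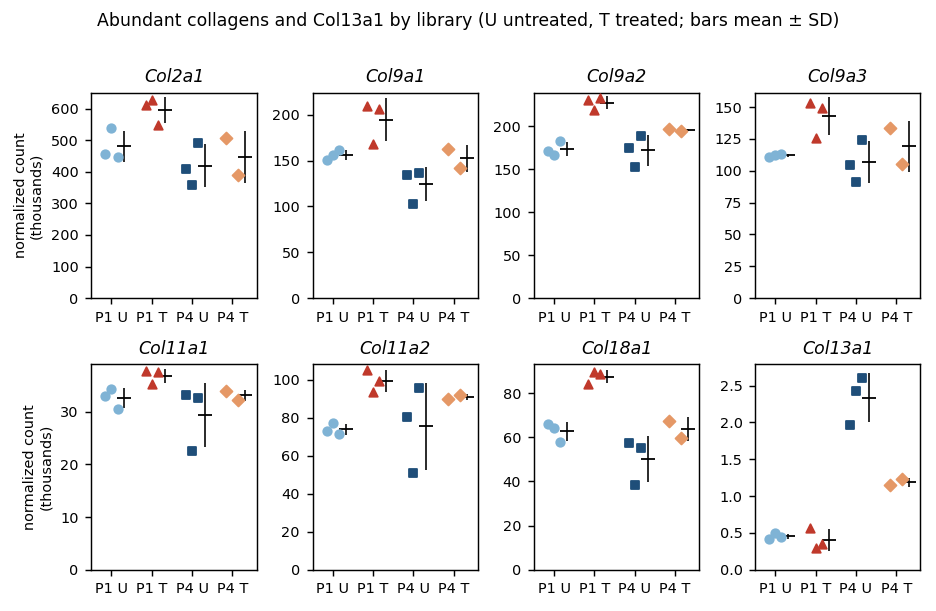
Normalized counts (axis scaled as marked) of the 6 tectorial membrane collagens, *Col18a1* and *Col13a1*, with 1 point per library and bars for the mean ± SD of each group (P1 U and P4 U untreated, P1 T and P4 T treated). The P1 treated libraries lie above the P1 untreated for the first 7 genes, and *Col13a1* is lower in all P1 than in all P4 libraries.

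Across these libraries the ratios of partner chains of collagens IX and XI stayed within narrow ranges, with shifts between groups inside them. The ratio of normalized counts of *Col9a1* to *Col9a3* ran from 1.1 to 1.43, that of *Col9a1* to *Col9a2* from 0.673 to 0.937, and that of *Col11a1* to *Col11a2* from 0.343 to 0.451 over the 11 libraries. The log2 ratio of *Col9a1* to *Col9a2* was -0.18 to -0.09 in P1 untreated and -0.57 to -0.38 in P4 untreated libraries. That of *Col9a1* to *Col9a3* was 0.45 to 0.52 and 0.13 to 0.36. The log2 ratio of *Col11a1* to *Col11a2* was -1.18 ± 0.039 in P1 untreated and -1.43 ± 0.0466 in P1 treated libraries (SD, n = 3 each), without overlap. *Col11a2* was thus the higher of the pair by more in P1 treated libraries. At P4 the treated values of this ratio (-1.51 and -1.41) lay inside the untreated range (-1.55 to -1.17).

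Cartilage markers were read beside these values because cartilage uses the same chains. Their summed level was 57351 to 59750 in P1 treated libraries, inside the range of 27958 to 77232 in P1 untreated, most of it *Cnmd* (25305 to 67906 in the P1 libraries), and the defining marker *Acan* was at 2 to 42 there. At P4 the sums were 25405 and 33913 in treated and 15864 to 25316 in untreated libraries. Their part in the level of the tectorial membrane chains was not tested.

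Treatment was compared first at P1, where the tectorial membrane chains and *Col18a1* lay above and chains of collagen VI, *Col5a1* and *Col26a1* below the untreated libraries, and none passed the test. In the P1 treated against the P1 untreated libraries, limma called 0 of the 41 collagens, and 0.353% of all genes tested. At an unadjusted p under 0.05, 5 members were higher (all genes, 5.18%) and 8 lower (all genes, 6.99%). Groups did not overlap for 8 members that were higher (all genes, 6.95%) and for 5 that were lower (all genes, 8.33%). The 8 were the 6 tectorial membrane chains, *Col18a1* and *Col17a1*, and the 5 were *Col5a1*, *Col6a1*, *Col6a2*, *Col25a1* and *Col26a1*. The median log2 fold change was 0.09 over the members and 0.00 over all genes. With P1 treated replicate 1 left out, 7 members were called (all genes, 2.02%), all of them lower in treated libraries (all genes lower, 1.49%).

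*Col18a1* was at 65885, 64138 and 57944 in P1 untreated and 84270, 89548 and 88744 in P1 treated libraries. At P4 it was at 57327, 38267 and 55307 without and 67551 and 59775 with Cre. Treated libraries were above untreated ones without overlap at both ages, by a log2 fold change of 0.48 at P1 (standard error 0.14, limma adjusted p = 0.192) and 0.36 at P4 (adjusted p = 0.41). *Col18a1* was called at P1 only when P4 untreated replicate 2, the library with its lowest value, was left out of the fit.

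*Col26a1*, a secreted collagen of little known function with an EMI domain (chr5:136741759-136883209, minus strand), had the smallest p of the members. Its values were 4454, 4564 and 4397 in P1 untreated and 2908, 1697 and 1147 in P1 treated libraries. The untreated libraries were close to each other and all treated ones lay below them. The log2 fold change was -1.33 (standard error 0.28, limma adjusted p = 0.0992), which passed at an adjusted p under 0.1 and, without P1 treated replicate 1, also at 0.05 (log2 fold change -1.68, adjusted p = 0.011).

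*Col6a2*, a chain of the beaded filaments that lie between basement membranes and the stroma, was at 2229, 2584 and 2310 in P1 untreated and 1662, 1365 and 991 in P1 treated libraries (log2 fold change -0.85, limma adjusted p = 0.108). *Col6a1*, its partner, was at 1768, 2368 and 1951 against 1559, 541 and 243 (log2 fold change -1.77, limma adjusted p = 0.23). Neither pair of groups overlapped. P1 treated replicate 1 was close to the untreated libraries for *Col6a1* but nearer to the other treated ones for *Col6a2*. *Col6a3*, the long chain of the same filament, was at 723, 699 and 568 against 581, 478 and 176, and the groups overlapped.

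*Col1a2*, the second chain of collagen I, was at 26032, 34219 and 36214 in P1 untreated and at 35746, 8820 and 10735 in P1 treated libraries. *Col3a1*, the collagen of soft connective tissue, was at 18228, 14624 and 21373 against 25233, 5818 and 6179. *Col15a1*, a multiplexin of vessel and muscle basement membranes, was at 395, 286 and 135 against 548, 52 and 56. In each of them replicate 1 of the P1 treated group was among the highest values and replicates 2 and 3 were below every untreated library.

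*Col8a2*, a short network chain, followed the same pattern at 1533, 1034 and 1240 against 1243, 608 and 338. Without replicate 1, the log2 fold changes were -1.71 for *Col1a2*, -1.57 for *Col3a1*, -2.18 for *Col15a1*, -1.46 for *Col8a2*, -2.47 for *Col6a1* and -1.03 for *Col6a2*, which with *Col26a1* were the 7 called (limma adjusted p of 0.011 to 0.0435). With all 3 libraries they were -1.08, -0.88, -1.07, -0.98, -1.77 and -0.85. Replicate 1 had the highest treated value for each of the 7, so leaving it out by itself moves them toward a call. These calls are therefore a description of the spread and no separate support for an effect of treatment.

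The mean level of mesenchyme markers was also lower in P1 treated replicates 2 and 3. The mean log2 level of the 9 markers was 11.22, 11.09 and 11.39 in P1 untreated and 11.05, 10.08 and 9.13 in P1 treated libraries, and 10.08, 10.73 and 10.1 in P4 untreated and 9.65 and 9.11 in P4 treated ones. *Pou3f4* and *Tbx18*, transcription factors of the cochlear mesenchyme, were at 991, 449 and 170 and at 2556, 1664 and 430 in P1 treated libraries, against 1342 to 1709 and 3411 to 4520 in P1 untreated. The summed level of the list did not move in this way, at 95682 to 108480 in P1 untreated and 119388 to 163732 in P1 treated libraries, since *Lum* and *Dcn* make up most of it. No marker was at 0 in any library. Sums of vessel and leukocyte markers were lower in the P1 treated libraries as well. The sum of 6 endothelial markers was 2970, 1349 and 1233 in P1 treated against 5587 to 7935 in P1 untreated libraries, with overlapping mean log2 levels. The mean log2 level of 6 leukocyte markers was 7.61, 6.3 and 6.39 against 7.71 to 8.2. The part of mesenchyme, vessels or leukocytes in the levels of these collagens was not tested. The heat map of collagens and mesenchyme markers shows both beside each other.

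**Figure D3:**
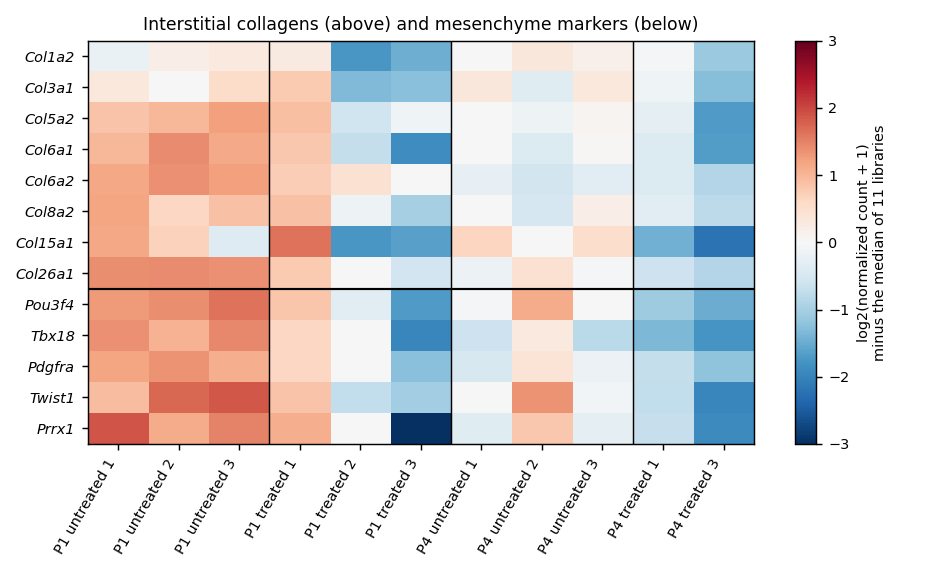
Heat map of 8 interstitial collagens (above the line) and 5 of the 9 mesenchyme markers (below it) in 11 libraries, as log2(normalized count + 1) minus the gene's median over the libraries. P1 treated replicate 1 has colours like those of the P1 untreated libraries, and P1 treated replicate 3 and P4 treated replicate 3 are the lowest 2 for each of the 5 markers drawn, which does not hold for *Lum*, *Dcn*, *Twist2* and *Postn*, not drawn.

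*Col5a1*, the chain that starts collagen I fibrils, was the steadiest of the lower members, at 4852, 4597 and 5506 in P1 untreated and 4015, 3172 and 3635 in P1 treated libraries (log2 fold change -0.47, limma adjusted p = 0.163). *Col25a1*, a transmembrane collagen known from motor innervation of muscle, was at 750, 981 and 936 against 704, 458 and 160 (log2 fold change -1.24, limma adjusted p = 0.283). The groups did not overlap for either gene, and in both replicate 1 was the treated library nearest to the untreated ones.

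For the basement membrane, none of the 8 network chains was called at P1, the median log2 fold change was 0.10, and the values ran from -0.98 for *Col8a2* to 0.31 for *Col4a6*. *Col4a1* (0.09), *Col4a2* (0.14), *Col4a3* (-0.24), *Col4a4* (0.11) and *Col4a5* (0.11) had adjusted p-values of 0.692 to 0.959 in limma.

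At P4, with 2 treated libraries, *Col14a1* lay above and *Col13a1* and several interstitial chains below the untreated libraries, and again none passed the test. In the P4 treated against the P4 untreated libraries limma called 0 of the 41 members, and 0.0543% of all genes. An unadjusted p under 0.05 was reached by 3 members that were higher (all genes, 6.26%) and 6 that were lower (all genes, 5.38%). Groups did not overlap for 6 members higher (all genes, 16.6%) and 11 lower (all genes, 16.9%). The median log2 fold change was -0.14 over the members and 0.00 over all genes.

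*Col14a1*, a FACIT chain on collagen I fibrils, had the smallest p. It was at 1390, 1407 and 1411 in P4 untreated and 2835 and 2045 in P4 treated libraries, and at 2019, 1877 and 1920 in P1 untreated and 1721, 2759 and 2495 in P1 treated ones. Untreated P4 libraries were almost equal and both treated ones lay above them. The log2 fold change was 0.78 (standard error 0.19, limma adjusted p = 0.254). *Col13a1* was at 1966, 2427 and 2609 in P4 untreated and 1146 and 1229 in P4 treated libraries, again without overlap (log2 fold change -0.97, standard error 0.24, limma adjusted p = 0.262).

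*Col15a1* and some interstitial chains (*Col1a2*, *Col5a2*, *Col6a1*, *Col6a3*) were among the 11 that were lower. *Col3a1*, *Col5a1*, *Col6a2* and the network chain *Col8a2* overlapped between the groups. *Col15a1* was at 274, 176 and 256 in P4 untreated against 64 and 37 in P4 treated libraries (log2 fold change -2.22, limma adjusted p = 0.372). *Col6a3* was at 185, 417 and 255 against 132 and 90 (log2 fold change -1.30, limma adjusted p = 0.342). *Col1a2* was at 29740, 37482 and 33046 against 28730 and 13795 (log2 fold change -0.74, limma adjusted p = 0.593). The mean log2 level of mesenchyme markers, given above, was lower in both P4 treated than in the P4 untreated libraries, but their sum was higher, at 172043 and 171451 against 138110 to 153708, most of it *Lum*. The part of mesenchyme in these levels was not tested.

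Age was compared first in untreated pups, in which chains of collagens IV, V, VI, XII and XVI were higher at P1 and *Col4a4*, *Col13a1*, *Col20a1* and *Col24a1* higher at P4. Between the P1 and P4 untreated libraries limma called 13 of the 41 collagens, where 19.9% of all genes were called. 9 were higher at P1 (all genes, 10.5%) and 4 lower (all genes, 9.38%). The median log2 fold change (P1 over P4) was 0.17 over the members and 0.02 over all genes. By class, 3 of the 4 transmembrane, 3 of the 9 FACIT, 3 of the 8 network, 2 of the 11 fibrillar, 1 of the 4 beaded filament and 1 of the 3 other members were called, and neither multiplexin was.

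The calls rested on few libraries, and the share of all genes called in the reduced fits is not given. Without P1 untreated replicate 1, the pup with low *Xist*, 8 of the 13 remained, without P1 untreated replicate 3 6 remained, and without P4 untreated replicate 3 6 remained, and over all libraries left out in turn the count was 6 to 18. *Col5a1*, *Col6a2*, *Col13a1* and *Col16a1* were called under every alternative. With log2 *Xist* as a covariate these and *Col20a1* were called, 5 in all. With the replicate number as a block, *Col20a1* was lost (adjusted p = 0.062 in limma) and *Col6a3* was gained (adjusted p = 0.0414), so the count stayed at 13.

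*Col13a1*, the transmembrane collagen found at the nerve-muscle junction and at cell adhesions (chr10:61838236-61979108, minus strand), changed most. It was at 419, 495 and 446 in P1 untreated and 1966, 2427 and 2609 in P4 untreated libraries. The groups were far apart and each was narrow. The log2 fold change was -2.35 (standard error 0.21, limma adjusted p = 0.000148), and over the alternatives it lay between -2.49 and -2.27.

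*Col5a1* (chr2:27886425-28039514, plus strand) was at 4852, 4597 and 5506 at P1 against 2163, 2350 and 2048 at P4 (log2 fold change 1.19, standard error 0.12, limma adjusted p = 0.000266). *Col6a2* (chr10:76595762-76623630, minus strand) was at 2229, 2584 and 2310 against 842, 672 and 794 (log2 fold change 1.63, standard error 0.19, limma adjusted p = 0.000434). *Col16a1*, a FACIT chain of cartilage and skin, was at 8380, 9904 and 10459 against 5782, 3160 and 3486 (log2 fold change 1.26, standard error 0.23, limma adjusted p = 0.00404). All 3 were higher in every P1 library, with P4 untreated replicate 1 the nearest to P1 for *Col16a1*.

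*Col12a1*, a FACIT chain that bridges collagen I fibrils, was at 309, 286 and 381 at P1 and 108, 136 and 161 at P4 (log2 fold change 1.27, limma adjusted p = 0.00731). *Col26a1* was at 4454, 4564 and 4397 against 1504, 2333 and 1654 (log2 fold change 1.31, limma adjusted p = 0.00886). Both were clearly separated by age, and the P1 treated libraries of *Col26a1* spread from between the untreated groups to below both.

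Among transmembrane collagens, *Col25a1* was at 750, 981 and 936 at P1 and 252, 408 and 301 at P4 (log2 fold change 1.49, limma adjusted p = 0.0348). *Col23a1*, a short-chain membrane collagen, was at 974, 359 and 845 against 276, 236 and 264 (log2 fold change 1.36, limma adjusted p = 0.0482). They were higher at P1, opposite to *Col13a1* of the same class, and P1 untreated replicate 2 stood low for *Col23a1*, which lost its call in 12 of 21 alternatives.

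Network chains differed within the class. *Col4a1* was at 6556, 4818 and 10355 at P1 and 4362, 2160 and 4000 at P4 (log2 fold change 1.04, limma adjusted p = 0.0347). *Col4a2* was at 6141, 4485 and 8978 against 4427, 2501 and 3565 (log2 fold change 0.88, limma adjusted p = 0.0347). The pair was highest in P1 untreated replicate 3 and lowest in P4 untreated replicate 2, and neither call held without P1 untreated replicate 1 or 3 or without P4 untreated replicate 2 or 3.

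*Col4a4*, which joins *Col4a3* and *Col4a5* in the collagen IV of specialized basement membranes, moved the other way. It was at 433, 388 and 361 at P1 and 725, 794 and 1088 at P4 (log2 fold change -1.12, standard error 0.29, limma adjusted p = 0.0197). *Col4a3* was at 2318, 1817 and 2317 against 2057, 1805 and 2057 (log2 fold change 0.12, limma adjusted p = 0.695), and *Col4a5* at 4853, 3882 and 4958 against 4810, 3022 and 5199 (log2 fold change 0.10, limma adjusted p = 0.727). The latter overlapped between the ages, although the annotated starts of *Col4a3* and *Col4a4* lie 72 bp apart on chromosome 1. *Col4a4* lost its call without P1 untreated replicate 3 or P4 untreated replicate 3.

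*Col24a1*, a fibrillar chain of developing bone and eye, was at 167, 94 and 124 at P1 and 399, 201 and 268 at P4 (log2 fold change -1.15, limma adjusted p = 0.0233). *Col20a1*, a little studied FACIT chain, was at 29, 116 and 63 against 230, 149 and 197 (log2 fold change -1.64, limma adjusted p = 0.0383). Both were higher in every P4 library, but the P1 values of *Col20a1* were widely spread and its call was lost when any 1 of 5 untreated libraries was left out.

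Vessel markers differed between the ages in their sums, while their mean log2 levels overlapped. The summed level of 6 endothelial markers was 5587, 7542 and 7935 in P1 untreated and 1166, 4560 and 1739 in P4 untreated libraries, mostly *Emcn*, while the mean log2 level overlapped (6.46 to 7.92 and 6.58 to 6.83). The sum of 5 pericyte markers, mostly *Pdgfrb*, was 2650 to 3371 and 1291 to 2440, while their mean log2 level overlapped (6.94 to 7.76 and 7.13 to 8.02). Bone markers were higher at P4 as a list, as *Col24a1* and the other 3 were, but not each marker. The sum of 5 was 578 to 667 in P1 untreated and 2407 to 3228 in P4 untreated libraries, mostly *Ibsp* at P4, and their mean log2 level was 5.67 to 6.17 and 7.63 to 8.07. *Bglap* was at 0 to 3 and 19 to 50, and *Alpl* at 163 to 312 and 341 to 618. *Sp7* was not higher at P4, at 125, 207 and 153 in P1 untreated and 125, 141 and 104 in P4 untreated libraries. *Runx2* overlapped, at 171, 95 and 102 against 295, 112 and 268. The part of bone in the members higher at P4, that of vessels in *Col4a1* and *Col4a2*, like that of mesenchyme in *Col5a1*, *Col6a2* and *Col12a1*, was not tested.

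In treated pups the ages were compared in the same way. Between P1 and P4 treated libraries, 7 members were called by limma (all genes, 11.1%), 5 higher at P1 (all genes, 5.63%) and 2 lower (all genes, 5.42%). The median log2 fold change was 0.29 over the members and 0.00 over all genes. *Col17a1*, the membrane collagen that anchors epithelia at hemidesmosomes, was at 70, 49 and 62 in P1 treated and 4 and 9 in P4 treated libraries. In untreated libraries it was at 26, 40 and 34 and at 21, 10 and 22. It was low throughout and lowest in the P4 treated pups, with a log2 fold change of 3.10 (standard error 0.47, limma adjusted p = 0.00411).

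*Col13a1* was at 565, 292 and 354 in P1 treated against 1146 and 1229 in P4 treated libraries (log2 fold change -1.61, limma adjusted p = 0.00394). *Col5a1* was at 4015, 3172 and 3635 against 2254 and 1733 (log2 fold change 0.86, limma adjusted p = 0.0053), and *Col6a2* at 1662, 1365 and 991 against 743 and 542 (log2 fold change 1.04, limma adjusted p = 0.0132). *Col12a1* was at 220, 289 and 290 against 159 and 85 (log2 fold change 1.18, limma adjusted p = 0.0289), and *Col6a3* at 581, 478 and 176 against 132 and 90 (log2 fold change 1.74, limma adjusted p = 0.0419). *Col4a4* was at 539, 312 and 457 against 693 and 1472 (log2 fold change -1.25, limma adjusted p = 0.0328).

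These calls rested on few libraries, and the share of all genes called in the reduced fits is not given. The losses can therefore not be called particular to collagens. In a fit of the treated libraries alone 3 remained (*Col5a1*, *Col13a1* and *Col17a1*), and with log2 *Xist* as a covariate 0 remained. In that last fit sex and age are nearly the same contrast, since all P1 treated libraries had low and both P4 treated libraries high *Xist*. The comparison of ages in untreated and in treated libraries for all members is plotted side by side.

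**Figure D4:**
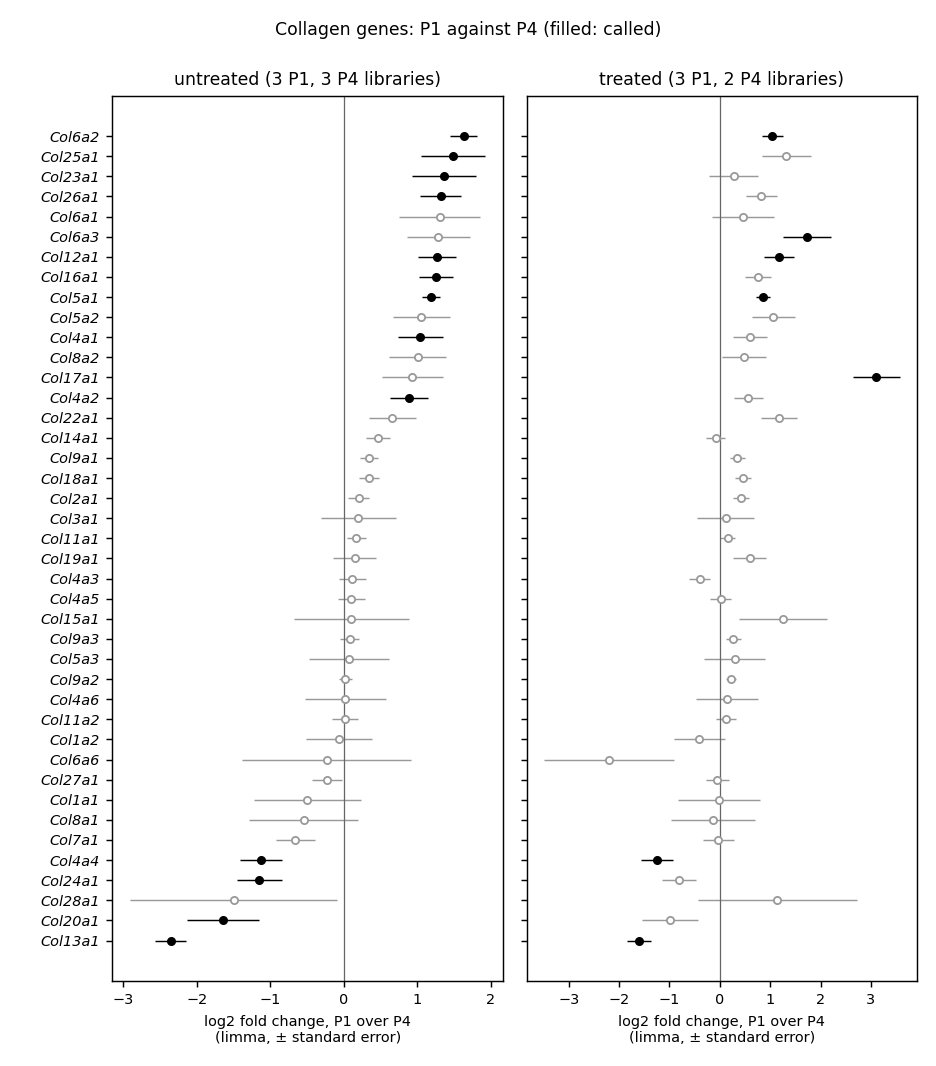
Log2 fold change of P1 over P4 with its standard error from limma for the 41 collagen genes, in untreated libraries on the left and treated libraries on the right, in the same order, with filled points for called genes. *Col6a2*, *Col5a1* and *Col12a1* are filled above 0 and *Col13a1* and *Col4a4* below 0 on both sides.

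Whether the effect of treatment differed between the ages was tested as an interaction. Limma called 0 of the 41 members, and 0% of all genes. The paper, with DESeq2, reports genes with such an interaction, and more genes for treatment at either age than limma called here. The lack of calls for treatment and interaction therefore does not show that the collagens did not respond. At an unadjusted p under 0.05 there were 2 members (all genes, 5.8%), *Col17a1* and *Col13a1*. The interaction of *Col17a1* was 2.17 on the log2 scale (standard error 0.62, limma adjusted p = 0.82), as treated libraries were above untreated at P1 and below them at P4, without overlap at both ages. That of *Col13a1* was 0.74 (limma adjusted p = 0.839).

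Ratios of partner chains differed in their spread between pairs. *Col4a1* to *Col4a2* stayed at 0.864 to 1.24 in all 11 libraries on normalized counts. *Col4a3* to *Col4a4*, a pair added after its values had been seen, ran from 1.89 to 6.42 and was 4.68 to 6.42 in P1 untreated and 1.89 to 2.84 in P4 untreated libraries. *Col6a1* to *Col6a2* was 0.793 to 0.916 in P1 untreated libraries but 0.938, 0.396 and 0.245 in P1 treated ones. The widest was *Col1a1* to *Col1a2*, which join in collagen I.

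*Col1a1* was at 298, 548 and 566 in P1 untreated, 1538, 208 and 546 in P1 treated, 751, 252 and 1370 in P4 untreated, and 750 and 427 in P4 treated libraries. Its ratio to *Col1a2* was 0.00672 to 0.0509. Per exon length the log2 ratio was -7.31 to -4.40, so that *Col1a1* was listed far below its partner in every library. A trait of the RNA and a trait of how the counts were made cannot be told apart here, and the cause was not tested. *Col1a1* had a log2 fold change of 0.31 at P1 and -0.17 at P4 for treatment and no call in any comparison.

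**Figure D5:**
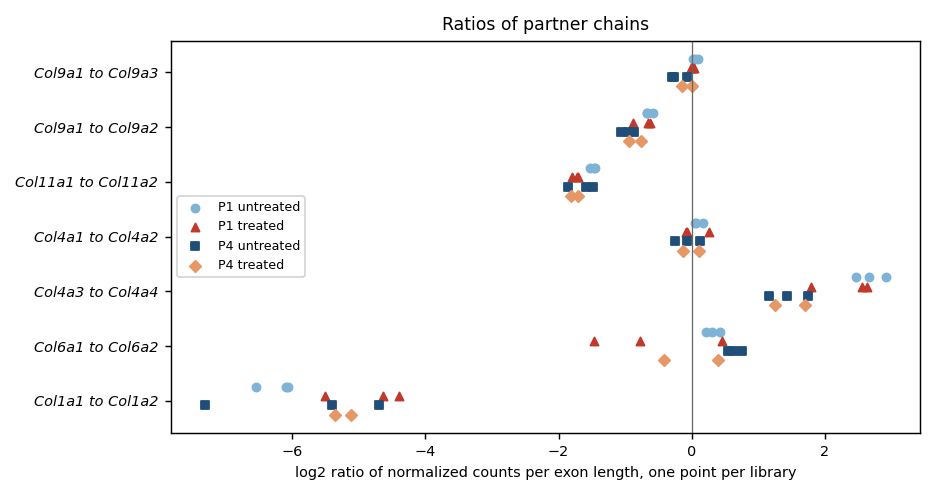
Log2 ratio of normalized counts per exon length for 7 pairs of partner chains, with 1 point per library coloured by group. *Col4a1* to *Col4a2* and the collagen IX and XI pairs are narrow, *Col6a1* to *Col6a2* spreads over the P1 treated libraries, and *Col1a1* to *Col1a2* lies between -7.31 and -4.40.

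The other members had no call in any comparison with all libraries in the fit. *Col27a1*, a fibrillar chain of cartilage, was at 3590 to 6428 over all libraries. *Col8a1*, the partner of *Col8a2*, ran from 485 to 3575 and varied within groups, with 3551, 523 and 2142 in P1 untreated libraries. *Col5a2* was at 1505, 1648 and 1956 in P1 untreated and 1545, 551 and 762 in P1 treated libraries, and joined the other interstitial chains in this. *Col7a1*, the collagen of anchoring fibrils in skin, was at 297 to 806, *Col22a1*, a FACIT chain of tissue junctions, at 132 to 615, *Col5a3* at 58 to 280 and the X-linked *Col4a6* at 48 to 275.

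*Col17a1*, called between the treated ages, was also among the lowest members, at 4 to 70. The lowest members without a call in any comparison were *Col19a1* (26 to 63), *Col6a6* (1 to 146) and *Col28a1* (0 to 43). Standard errors of their P1 treatment contrast were 0.29, 1.15 and 1.41 on the log2 scale. *Col26a1*, at -1.33 with a standard error of 0.28, was not called in that contrast. A change of 1 log2 unit could therefore go uncalled in each of *Col19a1*, *Col6a6* and *Col28a1*.

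Genes that make and bind collagen were read beside the members. A list of 45 genes for collagen modification, folding, export, processing, crosslinking and binding had 44 matches in the table (*Gp6* had none). Between untreated ages 20 of 44 were called, 17 higher at P1 and 3 lower, with a median log2 fold change of 0.38 (all genes, 19.9% called, 10.5% higher and 9.38% lower, median 0.02). Of the 18 genes for modification and folding 9 were higher and 1 lower, of the 8 for processing 4 higher and 1 lower, of the 5 for crosslinking 2 higher and 1 lower, and of the 8 receptors and 5 export genes 1 each was higher.

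*Fkbp10*, a prolyl isomerase that folds procollagen, had a log2 fold change of 0.74 (limma adjusted p = 0.000395) and *P4hb*, a subunit of prolyl hydroxylase, of 0.51 (limma adjusted p = 0.00075). *Adamts3*, which cuts the N-propeptide, was lower at P1 by a log2 fold change of -1.49 (limma adjusted p = 0.000395), as was *Lox*, the lysyl oxidase that crosslinks fibrils, by -1.65 (limma adjusted p = 0.00107). These 4 calls held under every alternative.

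In treated libraries 13 of 44 were called between the ages, 10 higher at P1 and 3 lower (all genes, 11.1%, 5.63% and 5.42%), among them *Pcolce2*, an enhancer of procollagen cleavage (0.77), *Fkbp10* (0.62), *Adamts3* (-1.38) and *Lox* (-1.64). This count was 6 without P1 treated replicate 1, and the share of all genes called in that fit is not given. With treatment at P1, limma called 0 of 44 (all genes, 0.353%), while an unadjusted p under 0.05 was reached by 3 higher and 10 lower genes (all genes, 5.18% and 6.99%). *Tll1*, a protease that cuts the C-propeptide, was nearest, with a log2 fold change of -2.34 (limma adjusted p = 0.0596). Without P1 treated replicate 1 it was called with *Tll2*, *Pcolce*, *Ddr2* and *Itga11*, all 5 lower in treated libraries (all genes, 2.02% called and 1.49% lower). Leaving this library out moved each of the 5 further below 0, as it did the 7 collagens called in that fit. These calls are therefore likewise no separate support for an effect of treatment.

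At P4 limma called 0 of 44 with treatment (all genes, 0.0543%), and 8 higher and 1 lower gene had an unadjusted p under 0.05 (all genes, 6.26% and 5.38%). *Adamts14*, another cutter of the N-propeptide, had the smallest p (log2 fold change 0.46, limma adjusted p = 0.224). For the interaction limma called 0 of 44, and at an unadjusted p under 0.05 there were 1 higher and 4 lower genes (all genes, 5.8% in either direction), and *Colgalt1*, which adds galactose to hydroxylysine, had the smallest p (-0.42, limma adjusted p = 0.82).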

How the data were processed

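RNA of 12 samples in 4 groups is described, and 11 are in the table. The authors deposited 1 score for each gene and library, a count scaled by the size factor of its library and then rounded. They used STAR 2.5.2b with mm10 for alignment and featureCounts for quality control only. Expression was quantified by transcript with Sailfish, summed to genes with tximport, and the table itself names no tool. The table has 27755 entries, of which 626 lack a symbol, and 1 duplicate entry was dropped.

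Genes with a mean of at least 10 were compared as log2(value + 1) in R 4.3.3 with limma 3.58.1: a mean for each of the 4 groups, 1 spread for all 11 libraries, eBayes with trend and Benjamini-Hochberg adjustment over all 18400 genes. Fold changes of low genes are understated on this scale. Shares and ratios had no test. Gene positions and exon lengths came from GENCODE M21 (GRCm38), promoter windows from RefSeq. Members called in any comparison, the 6 tectorial membrane chains and, in comparisons with no call, the member of smallest p are given by library. Of the biosynthesis genes, up to 4 called with the smallest adjusted p, or the one with the smallest p, are named; *Tll2*, *Pcolce*, *Ddr2* and *Itga11* were named after their values were seen, as were the other members listed by library. The members and lists were chosen with earlier results of these data known. The fit was tested on simulated data.

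Residuals of same-numbered libraries correlated at 0.115 to 0.136 between P1 and P4 untreated libraries, so the replicate numbers were taken to pair these, from the data and not from the labels. Alternatives were another pseudocount, minimum, threshold, scaling, trend setting or set of libraries, *Xist* as a covariate and a replicate block.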

Additional observations from a re-analysis of the deposited data

How the results depend on the processing

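Over the libraries left out in turn, called collagens numbered 0 to 7 for treatment at P1 (7 without P1 treated replicate 1, 1 without P4 untreated replicate 2), 0 throughout for treatment at P4 and the interaction, 6 to 18 for age in untreated and 2 to 8 for age in treated libraries. Of the biosynthesis and receptor genes they numbered 0 to 5, 16 to 22 (age, untreated) and 3 to 14 (age, treated). At an adjusted p under 0.1, 1 collagen (*Col26a1*) and 1 biosynthesis gene (*Tll1*) were called for treatment at P1. Without the trend, 8 collagens were called for age in untreated and 8 biosynthesis genes in treated libraries. With only the groups compared, these were 3 collagens and 6 biosynthesis genes in treated libraries. With log2 *Xist* as a covariate, 5 collagens were called for age in untreated libraries, and 0 collagens and 0 biosynthesis genes in treated ones. The cause was not tested. The share of all genes called in these fits is not given, so losses cannot be called particular to collagens. The pseudocount, both minimums, the median of ratios, quantile normalization and the replicate block kept every count of calls within 1.5 times.

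Replicate numbers were used as a block in all comparisons. The blocked fit called 13 collagens for age in untreated libraries (*Col20a1* lost, *Col6a3* gained) and 5 in treated ones (*Col12a1*, *Col4a4* and *Col6a3* lost, *Col22a1* gained), and 0 for treatment at either age and for the interaction. Outside the untreated comparison of ages, same-numbered libraries correlated at most at 0.026 in their residuals, and libraries of different numbers at up to 0.156. There the former share only a number. Of the 13 and 7 collagens called for age, all kept their direction under every alternative, and 4 and 0 kept their call. The P4 treated group has 2 libraries, so changes in it rest on few pups. Depth is known only as the sums of normalized counts.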

Other observations

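The 3 collagen symbols under the minimum were seen at a few normalized counts. *Col10a1*, the collagen of growth plate cartilage, was at 0 to 14 over the 11 libraries, *Col6a4* at 1 to 16 and *Col6a5* at 0 to 4. Among markers of other tissues, *Dct* of melanocytes was at 1590 in P1 treated replicate 2 and at 0 and 6 in the other P1 treated libraries.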
